A study of Homo sapiens with 16 samples.

Results

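The comparison described here is genistein added to gemcitabine in MiaPaCa2, an established human pancreatic carcinoma cell line. It compared 4 of the 16 RNA-Seq libraries of the series, chosen by their labels. The 2 co-treatment libraries came from cells given 50 µM genistein with 40 nM gemcitabine for 24 h. The other 2 came from cells given 40 nM gemcitabine alone for 24 h. The drug under test is therefore genistein, and both groups carried gemcitabine. The other MiaPaCa2 libraries, which shared the statistical fit, were 2 untreated controls and 2 with 50 µM genistein alone. PANC1, another pancreatic carcinoma line, was treated in the same 4 ways. Cells were grown in DMEM with fetal bovine serum and genistein was dissolved in DMSO. The sources used here do not say whether the gemcitabine libraries received the same DMSO. Each group was 2 biological replicates of 1 cell line, and the p-values measure the spread between such cultures. Of 63677 gene identifiers, 16064 had enough counts to be tested.

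Gemcitabine is a deoxycytidine analogue that is phosphorylated in the cell, inhibits ribonucleotide reductase and is built into DNA, where it stalls replication. Genistein is a soy isoflavone that binds estrogen receptors and inhibits tyrosine kinases. Cells that sense amino acid shortage, unfolded protein or oxidative stress reduce translation and translate the factor ATF4, which switches on amino acid transporters, aminotransferases and the death-associated factor DDIT3 (CHOP). This programme is called the integrated stress response, and it was one of the gene lists counted below. Of the epithelial and mesenchymal markers KRT8, KRT18 and VIM were abundant. The 5 mesenchymal markers summed to 4694 to 5104 CPM (counts scaled to a common library size) in the co-treatment libraries. In the gemcitabine libraries they summed to 4993 to 5099 CPM. Almost all of this was VIM, with 67752 to 85408 counts per library. ZEB1, FN1 and SNAI2 had 37 to 182 counts per library, and CDH2 had 0. EPCAM had 0 counts in all 4 libraries and CDH1 at most 2. Of the markers of other pancreatic cells, all 5 islet genes had 0 counts, and 6 of 7 acinar genes had 3 counts or fewer. Of 6 fibroblast markers 4 had at most 3 counts, and the summed level was 2.82 to 3.37 CPM with genistein and 5.03 to 6.06 CPM without, from COL1A1 and COL3A1.

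Adding genistein changed 945 of the 16064 genes, 5.88%, and more of them rose than fell. A gene was called when its adjusted p (limma-voom, Benjamini-Hochberg) was at most 0.05, its log2 fold change at least 0.4 in size and its mean FPKM in the co-treatment libraries above 1. By this rule 651 genes (4.05%) were higher in co-treated cells and 294 (1.83%) lower. The FPKM limit looks at the co-treatment group alone and so drops more falling than rising genes. With a mean FPKM above 1 in either group, 652 genes were higher and 327 lower. Most changes were modest: 131 of the higher and 17 of the lower genes changed by a log2 value of 1 or more, and the median of the called genes was 0.64 for those that rose and -0.59 for those that fell. The median over all genes tested was -0.0070. An unadjusted p under 0.05 was reached by 3804 genes, 23.7%, and the libraries of the groups did not overlap in normalised CPM in 8038 genes, 50%. The plot of change against level shows the called genes spread over the range of expression, with the largest estimates among genes of few counts.

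**Figure D1:**
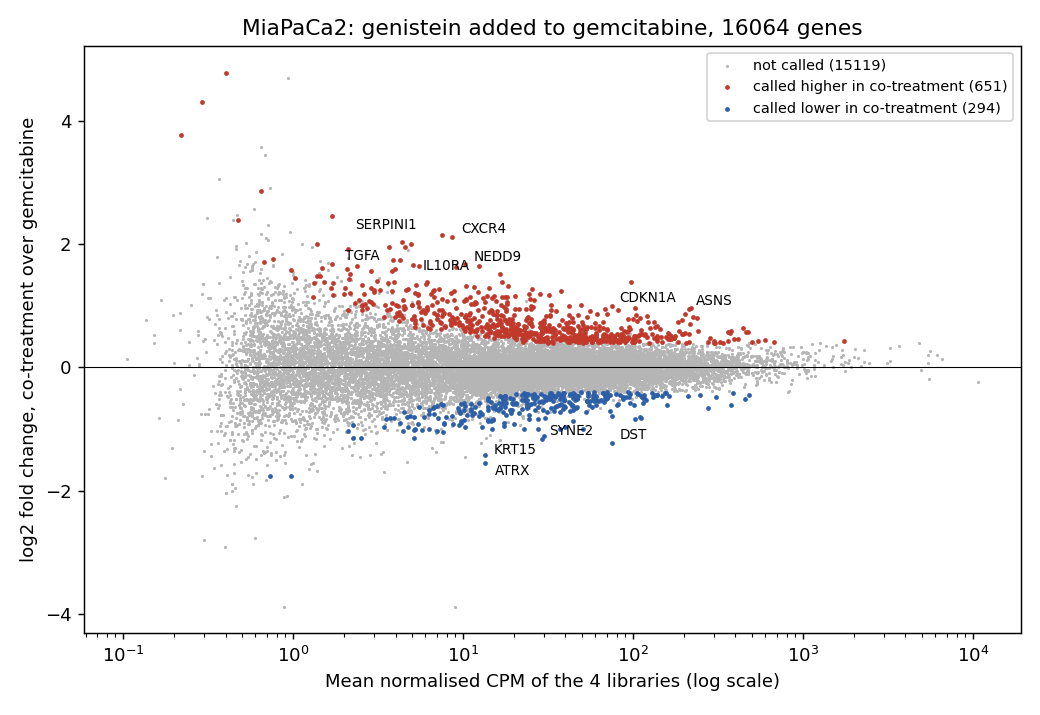
Log2 fold change (co-treatment over gemcitabine, MiaPaCa2) of the 16064 genes tested against the mean normalised CPM of the 4 libraries on a log axis. Red points are the 651 genes called higher, blue points the 294 called lower and grey points the rest, and labels mark genes described in the text such as SERPINI1 at 2.16 and ATRX at -1.55.

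The libraries held 13905360 and 15870195 counts (co-treatment) and 16233538 and 15885255 counts (gemcitabine). The co-treatment replicates lay further apart than any other MiaPaCa2 pair, with a chi-square per degree of freedom of 10.3 against 3.46 to 5.95, and their difference ran with base composition (Spearman -0.646 across genes between GC content and replicate 1 minus replicate 2). Left out in turn, gemcitabine replicate 1 left 142 called genes and gemcitabine replicate 2 left 137. Without co-treatment replicate 1 the number was 1890, and without co-treatment replicate 2 it was 683. On the deposited FPKM values (limma-trend on log2(FPKM + 1)) 18 genes were called. After each library was corrected for GC content 1562 genes were called, among them 842 of the 945, and the part of GC content in the single results was not tested.

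In the integrated stress response 9 of 24 tested genes rose (25 on the list) and 0 fell, with a median log2 fold change of 0.29, where 4.05% of all genes rose. Counts of the lists below are to be read beside the shares of all genes, 4.05% higher and 1.83% lower. A list with 1 called member describes that gene and not the list. ASNS, asparagine synthetase, lies on GRCh37 chromosome 7, 97480989 to 97501854, minus strand. It measured 137 and 153 CPM in the gemcitabine libraries and 285 and 278 CPM in the co-treatment libraries, both well above, for a log2 fold change of 0.96 (SE 0.082, adjusted p = 0.000272). CHAC1, which degrades glutathione and is induced by ATF4, measured 9.84 and 6.66 CPM with gemcitabine and 15.98 and 24.6 CPM with co-treatment. The groups did not overlap, as in 50% of all genes tested, and the co-treatment libraries were spread widely. The log2 fold change was 1.294 (SE 0.22, adjusted p = 0.00511). ATF3, a transcription factor of the same pathway, went from 7.46 and 9.69 to 17.98 and 19.997 CPM, 2.23-fold. In DDIT3, the pro-apoptotic factor CHOP, 11.2 and 9.995 CPM became 19.8 and 16.5 CPM, with a log2 fold change of 0.77 (SE 0.14, adjusted p = 0.0077). Exons of a gene on the opposite strand cover 31.6% of the exon bases of DDIT3, and the sources used here do not say if reads were counted by strand. The other 5 called members were ATF4 itself, PPP1R15A, a subunit that directs a phosphatase to the translation factor eIF2, the transporter SLC7A5 and the enzymes CTH and PSAT1, with log2 fold changes from 0.45 to 0.52. They are named after their values were seen, except SLC7A5. The call of ASNS held with any 1 library left out. That of CHAC1 was lost without gemcitabine replicate 2, that of ATF3 without gemcitabine replicate 1 and that of DDIT3 without either. Below, a call lost without gemcitabine replicate 1 or 2 was lost in 1 or both of these fits.

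ATF4 acts with C/EBP factors on the C/EBP-ATF element TGATGNAAN, where N is any base. Of the 21 stress-list genes with a promoter in the RefSeq table (GRCh38.p14, 250 bases before to 50 after the start), 4 held these letters on either strand, against 1002 of all 27305 promoters of the table, 3.67%. They were CHAC1, ATF3, ASNS and SLC3A2, and the first 3 were called higher, whereas SLC3A2, a transporter subunit, had 0.27 (adjusted p = 0.101). The promoters of the 3 called genes follow because these genes led the list, in lower case from 5′ to 3′ on the strand of the gene, with the element in capitals. CHAC1 is at chr15:40953221-40953520, plus strand. ATF3 is at chr1:212565157-212565456, plus strand, and ASNS at chr7:97872359-97872658, minus strand.
CHAC1: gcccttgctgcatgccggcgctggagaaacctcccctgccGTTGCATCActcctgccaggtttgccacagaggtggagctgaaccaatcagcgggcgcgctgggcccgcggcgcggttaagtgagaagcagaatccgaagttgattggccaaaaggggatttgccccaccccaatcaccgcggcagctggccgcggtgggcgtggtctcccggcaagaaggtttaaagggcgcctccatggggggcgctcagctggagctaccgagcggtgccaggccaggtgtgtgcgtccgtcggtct
ATF3: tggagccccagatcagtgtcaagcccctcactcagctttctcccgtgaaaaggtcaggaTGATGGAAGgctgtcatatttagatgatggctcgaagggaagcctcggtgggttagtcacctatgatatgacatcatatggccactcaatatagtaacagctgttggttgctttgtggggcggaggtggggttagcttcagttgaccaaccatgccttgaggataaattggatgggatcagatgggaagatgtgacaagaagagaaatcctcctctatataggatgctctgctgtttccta
ASNS: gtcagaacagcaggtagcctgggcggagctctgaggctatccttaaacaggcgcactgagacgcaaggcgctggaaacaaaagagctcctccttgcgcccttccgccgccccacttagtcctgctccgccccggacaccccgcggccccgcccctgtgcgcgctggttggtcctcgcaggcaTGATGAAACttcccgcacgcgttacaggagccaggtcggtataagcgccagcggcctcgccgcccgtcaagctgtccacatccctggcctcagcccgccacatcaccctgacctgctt
In CHAC1 the match is the reverse complement of the element, and in ATF3 and ASNS it reads forward. The match is a description of letters in this window and not of binding. A single start was taken per gene symbol, and any other start of these genes was not searched. Only 63.8% of the genes tested had a promoter in the table, so a share over the called genes would be void and is not given. The shares given above have the same limit.

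Of 22 endoplasmic reticulum chaperones tested, 2 were higher and 0 lower (median 0.093). HERPUD1, which helps clear misfolded proteins, went from 63.5 and 63.1 to 89.3 and 90.8 CPM, a log2 fold change of 0.51 (SE 0.091, adjusted p = 0.00647). MANF, a secreted chaperone cofactor, went from 62.6 and 72.4 to 94.5 and 99.98 CPM, 0.53 (adjusted p = 0.00689). Of 18 genes for intracellular calcium channels and pumps, 1 was higher, ITPR1, the inositol trisphosphate receptor that releases calcium from the reticulum. Its libraries read 23.9 and 21.1 CPM with gemcitabine and 37.1 and 33.3 CPM with co-treatment, with a log2 fold change of 0.64 (SE 0.12, adjusted p = 0.00705). Of 20 aminoacyl-tRNA synthetases, some of which ATF4 also drives, 0 were higher and 1 lower, VARS at -0.42 (adjusted p = 0.0429). None of the 16 cytosolic heat shock genes was called, with 1 below an adjusted p of 0.05 and a median of -0.076. The calls of HERPUD1, MANF and ITPR1 were lost without gemcitabine replicate 1 or 2. The call of VARS was lost in 1 or more fits that left out co-treatment replicate 1, control replicate 1 or 2 or gemcitabine replicate 1 or 2 (highest adjusted p without a library 0.08 to 0.326).

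Among genes of hypoxia and glycolysis, 30 of 32 were tested, 9 were higher and 0 lower, and 27 of the 30 had a positive sign (median 0.20). EGLN3, a prolyl hydroxylase that marks HIF for destruction and is itself a HIF target, read 5.18 and 4.91 CPM with gemcitabine and 10.5 and 13.1 CPM with co-treatment. That is a log2 fold change of 1.22 (SE 0.20, adjusted p = 0.0039). ALDOC, an aldolase of glycolysis, rose from 16.4 and 18.2 to 36.6 and 42.4 CPM, 2.28-fold, with 1.19 (adjusted p = 0.000455). NDRG1, a stress-responsive gene of hypoxia, rose from 50.96 and 48.6 to 80.03 and 86.4 CPM, and SLC2A3, a glucose transporter, from 16.8 and 20.5 to 30.9 and 30.4 CPM. The groups did not overlap in these 4 genes, as in 50% of all genes tested. The remaining 5, named after their values were seen, were VEGFA, EPAS1, PFKFB4, ENO2 and SLC2A1, from 0.46 to 0.60 on the log2 scale. The calls of ALDOC and NDRG1 held with any 1 library left out, and those of EGLN3 and SLC2A3 were lost without gemcitabine replicate 1 or 2 (highest adjusted p without a library 0.0672 to 0.0961).

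All 23 tested genes of cholesterol synthesis and uptake had a positive log2 fold change, with a median of 0.31, and 4 were called higher and 0 lower. An adjusted p of at most 0.05 alone was reached by 8 of the 23, against 7.34% of all genes. The list counts a coordinated pathway under the factor SREBF2, so its members share their regulation. INSIG1, the sterol-responsive retention protein, measured 52.4 and 59.6 CPM with gemcitabine and 108.5 and 105.2 CPM with co-treatment, a change of 0.93 (SE 0.098, adjusted p = 0.000392). TM7SF2, a sterol reductase, rose from 69.8 and 66.6 to 106.2 and 131 CPM. IDI1 (isopentenyl diphosphate isomerase) rose by 0.64 (adjusted p = 0.00397) and LSS (lanosterol synthase) by 0.54 (adjusted p = 0.00583) on the log2 scale. Of 22 genes of fatty acid synthesis and desaturation 2 were higher, ACSL1 (0.48) and ACSS2 (0.45), which activate fatty acids and acetate. Of 13 genes of PPAR targets and fatty acid oxidation 1 was higher, ANGPTL4, at 0.63 (adjusted p = 0.0358). The call of INSIG1 held with any 1 library left out, and those of TM7SF2, IDI1 and LSS were lost without gemcitabine replicate 1 or 2. The calls of ACSL1, ACSS2 and ANGPTL4 were lost in 1 or more fits that left out co-treatment replicate 1 or 2, control replicate 1 or 2 or gemcitabine replicate 1 or 2 (highest adjusted p without a library 0.0517 to 0.282). After GC correction ACSS2 was at 0.37, under the fold limit of 0.4, so this call was lost.

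Of 21 tested members of the lysosome and autophagy list 19 were positive, 3 were called higher and 0 lower (median 0.15). NEU1, a lysosomal sialidase, rose from 58.2 and 53.2 to 81.6 and 88.5 CPM, a change of 0.61 (SE 0.098, adjusted p = 0.00363). WIPI1, an autophagosome protein, was at 0.43 (adjusted p = 0.0469), and exons of opposite-strand genes cover 28.1% of its exons. The call of NEU1 was lost without gemcitabine replicate 2. The call of WIPI1 was lost in 1 or more fits that left out co-treatment replicate 2, control replicate 1 or 2, gemcitabine replicate 1 or 2 or genistein replicate 1 or 2 (highest adjusted p without a library 0.0656 to 0.311). After GC correction WIPI1 was at 0.36, under the fold limit of 0.4, so this call was lost.

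**Figure D2:**
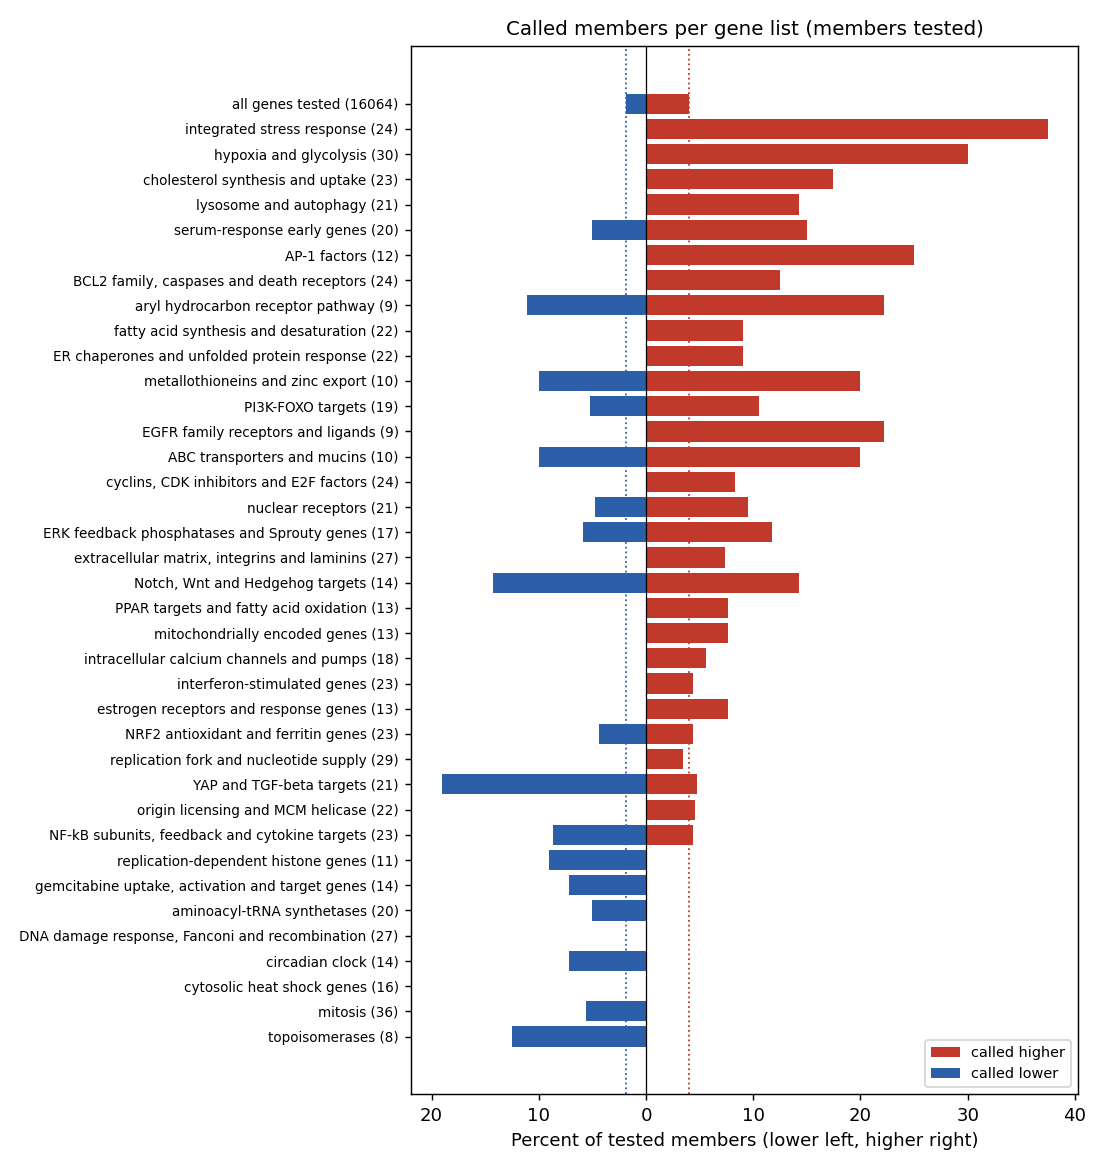
Share of the tested members of the gene lists shown, without the genes the study names, called higher (red, right) or lower (blue, left) in co-treatment against gemcitabine, with the number tested in brackets. Dotted lines mark the shares over all genes, 4.05% higher and 1.83% lower, and the integrated stress response (9 of 24) and hypoxia and glycolysis (9 of 30) reach furthest to the right.

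Of 9 tested EGFR family receptors and ligands, 2 were higher and 0 lower, both of them ligands. TGFA (transforming growth factor alpha) read 2.21 and 1.64 CPM with gemcitabine and 7.23 and 5.81 CPM with co-treatment, a log2 fold change of 1.74 (SE 0.24, adjusted p = 0.00152). HBEGF rose from 23.5 and 25.02 to 44.3 and 47.4 CPM, with 0.92 (adjusted p = 0.0012). Downstream of these receptors, 2 of 17 ERK feedback phosphatases and Sprouty genes were higher and 1 lower. DUSP4 and DUSP5, which dephosphorylate ERK, changed by 0.98 (adjusted p = 0.00777) and 0.83 (adjusted p = 0.00093). ERRFI1, which inhibits the EGF receptor itself, fell from 428 and 453 to 357 and 308 CPM, a log2 value of -0.41 (SE 0.088, adjusted p = 0.0155). The calls of TGFA, HBEGF and DUSP5 held with any 1 library left out, and that of DUSP4 was lost without gemcitabine replicate 1 or 2. The call of ERRFI1 was lost in 1 or more fits that left out co-treatment replicate 2 or gemcitabine replicate 1 or 2 (highest adjusted p without a library 0.114 to 0.137). After GC correction ERRFI1 was at -0.398, under the fold limit of 0.4, so this call was lost.

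Among serum-response early genes, 20 tested, 3 were higher and 1 lower. The orphan nuclear receptor NR4A1 read 8.97 and 7.57 CPM with gemcitabine and 17.8 and 18.3 CPM with co-treatment, with a log2 fold change of 1.13 (SE 0.17, adjusted p = 0.00272). IER5, a stress- and serum-induced factor, rose from 46.6 and 46.8 to 86.2 and 93.3 CPM, 0.94 (adjusted p = 0.000313). KLF4, a zinc finger factor, was at 0.55 (adjusted p = 0.0251). The gene that fell was MYC, from 159 and 160.2 to 116.1 and 119 CPM, with -0.44 (SE 0.084, adjusted p = 0.00849). Both MYC libraries of co-treatment lay below both of gemcitabine, and the groups did not overlap in 50% of all genes tested. Of 12 AP-1 factors 3 were higher, ATF3 (above), FOS (0.56) and MAFF (0.49), and the list's median was -0.0023. The call of IER5 held with any 1 library left out, and those of NR4A1 and MYC were lost without gemcitabine replicate 1 or 2. The calls of KLF4, FOS and MAFF were lost in 1 or more fits that left out co-treatment replicate 2, control replicate 1 or 2 or gemcitabine replicate 1 or 2 (highest adjusted p without a library 0.0604 to 0.285).

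Among 24 cyclins, CDK inhibitors and E2F factors 2 were higher, CDKN1A and CDKN1C, and 0 lower. CDKN1A, the p21 inhibitor of cyclin-dependent kinases, measured 48.2 and 51.7 CPM with gemcitabine, 96.9 and 103.5 CPM with co-treatment and 6.15 and 5.65 CPM in the controls. Co-treatment against gemcitabine was 1.004 (SE 0.098, adjusted p = 0.000313). CDKN1C, another inhibitor of these kinases, was at 0.93 (adjusted p = 0.015). The call of CDKN1A held with any 1 library left out. The call of CDKN1C was lost in 1 or more fits that left out co-treatment replicate 2 or gemcitabine replicate 1 or 2 (highest adjusted p without a library 0.161).

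Of 36 tested genes of mitosis 2 were lower and 0 higher, and 26 had a negative sign (median -0.13). CENPF, a kinetochore protein, measured 71.99 and 63.8 CPM with gemcitabine and 36.6 and 31.5 CPM with co-treatment, a log2 fold change of -0.998 (SE 0.20, adjusted p = 0.0101). KIF14, a kinesin of cytokinesis, fell from 17.6 and 18.4 to 11.6 and 8.37 CPM, with -0.87 (adjusted p = 0.0413). Both fell without overlap between the groups, and 50% of all genes tested had no overlap. Of 22 licensing and MCM genes 1 was higher, GINS4 (0.47 (adjusted p = 0.00525)), of which opposite-strand genes cover 23.4% of exon bases. Of 29 genes of the replication fork and nucleotide supply 1 was higher, TK1, the thymidine salvage kinase, from 384 and 348 to 477 and 625 CPM. For the licensing and fork lists the share called higher was near the 4.05% of all genes. Of 27 genes of the DNA damage response, Fanconi pathway and recombination 0 were called, 0 had an adjusted p of at most 0.05, and 2 were lower after GC correction. Of 8 topoisomerases 1 fell, TOP2B, a type II topoisomerase, at -0.71 (SE 0.16, adjusted p = 0.0216). Of 11 replication-dependent histone genes 1 was lower, HIST1H2BK (-0.59 (adjusted p = 0.0207)). The calls of CENPF, GINS4 and HIST1H2BK were lost without gemcitabine replicate 1 or 2. The calls of KIF14, TK1 and TOP2B were lost in 1 or more fits that left out co-treatment replicate 2, control replicate 1 or 2 or gemcitabine replicate 1 or 2 (highest adjusted p without a library 0.0888 to 0.207).

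Of 14 tested genes of gemcitabine uptake, activation and action, 0 were higher and 1 lower (0 after GC correction), CMPK1, the kinase that adds the second phosphate to gemcitabine. It measured 95.3 and 98.6 CPM with gemcitabine and 73.3 and 56.9 CPM with co-treatment, a change of -0.59 (SE 0.12, adjusted p = 0.0123). DCK, the kinase of the first step, was at 0.19 (adjusted p = 0.37), and SLC29A1, the main nucleoside carrier, at 0.22 (adjusted p = 0.1). RRM1 and RRM2 encode the subunits of ribonucleotide reductase: RRM1 was at -0.15 (adjusted p = 0.368), and RRM2 went from 832 and 893 to 1118 and 1061 CPM, at 0.34 (adjusted p = 0.012), under the fold limit of 0.4. CDA, the deaminase that inactivates the drug, had too few counts to be tested. The call of CMPK1 was lost in 1 or more fits that left out co-treatment replicate 2 or gemcitabine replicate 1 or 2 (highest adjusted p without a library 0.119). After GC correction CMPK1 was at -0.37, under the fold limit of 0.4, so this call was lost.

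Of 24 BCL2 family, caspase and death receptor genes 3 were higher and 0 lower, with a median of -0.024. BMF, a pro-apoptotic BH3-only protein, measured 11.3 and 10.6 CPM with gemcitabine and 17.6 and 16.4 CPM with co-treatment, a log2 fold change of 0.63 (SE 0.14, adjusted p = 0.0187). CASP9, the initiator caspase of the mitochondrial route, rose from 25.3 and 23.6 to 35.2 and 38.6 CPM, 0.59 (adjusted p = 0.011). BCL2L11 (BIM), another BH3-only protein, was at 0.42 (adjusted p = 0.0265). The calls of BMF and CASP9 were lost without gemcitabine replicate 1 or 2. The call of BCL2L11 was lost in 1 or more fits that left out co-treatment replicate 1, control replicate 1 or 2 or gemcitabine replicate 1 or 2 (highest adjusted p without a library 0.124 to 0.208). After GC correction BCL2L11 was at 0.37, under the fold limit of 0.4, so this call was lost.

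The study names 12 genes for genistein or co-treatment, chosen with these same samples, so that their direction is not independent evidence. All 12 were tested: 5 were higher (NR4A1, VDR, DDIT3, ITPR1 and CASP9) and 0 lower. VDR, the vitamin D receptor, measured 15.03 and 13.9 CPM with gemcitabine and 28.4 and 27.7 CPM with co-treatment, a log2 fold change of 0.95 (SE 0.12, adjusted p = 0.000805). MUC1, a membrane mucin, read 5.999 and 6.18 CPM with gemcitabine and 3.51 and 4.37 CPM with co-treatment. Its libraries did not overlap, as in 50% of all genes tested, but the difference of -0.62 (SE 0.20, adjusted p = 0.0732) did not pass. After GC correction MUC1 was called lower, the 1 lower gene of the 12, at -0.68 (adjusted p = 0.0097). The paper also reports lower MUC1 after genistein in both lines by qPCR and by western blot, assays separate from these libraries. GPER1, the G protein-coupled estrogen receptor, read 3.55 and 3.82 CPM and 3.10 and 5.44 CPM in the same order, and these overlapped (0.17 (adjusted p = 0.738)). SP1, a general transcription factor, was at -0.37 (adjusted p = 0.0525), RXRA, the partner of VDR, at -0.24 (adjusted p = 0.238) and the nicotinic receptor CHRNA7 at 0.23 (adjusted p = 0.668). The paper proposes that SP1 and RXRA are among factors activated downstream of GPER1. A figure legend there describes proposed targets as raised by co-treatment over gemcitabine, without naming them. Here the RNA of SP1 and RXRA had negative estimates that did not pass. Of 21 nuclear receptors, NR4A1 and VDR were higher and NR2F1 (COUP-TFI) lower, at -0.46 (adjusted p = 0.0195). Of 13 tested estrogen receptor and response genes 1 was higher, SLC9A3R1, a scaffold protein, from 88.1 and 93.5 to 123 and 141 CPM. The call of VDR held with any 1 library left out, and those of NR2F1 and SLC9A3R1 were lost without gemcitabine replicate 1 or 2 (highest adjusted p without a library 0.0832 to 0.208).

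Of 23 tested NF-kB subunits, feedback genes and cytokine targets 2 were lower and 1 higher, and 17 had a negative sign (median -0.15). IL8, the neutrophil chemokine CXCL8, measured 123 and 139.6 CPM with gemcitabine and 82.6 and 66.1 CPM with co-treatment, a change of -0.83 (SE 0.12, adjusted p = 0.00212). CXCL1 fell from 73.3 and 87.1 to 53.2 and 55.1 CPM, with -0.56 (adjusted p = 0.00763). Genistein alone gave log2 fold changes of 0.12 and 0.13 for the same genes, neither past the test. NFKBIE, an inhibitor of NF-kB, was higher at 0.64 (adjusted p = 0.0276). Of 23 interferon-stimulated genes 1 was higher (0 after GC correction), IFI6 (0.46 (adjusted p = 0.0491)). That count was near the 4.05% of all genes called higher. The calls of IL8 and CXCL1 were lost without gemcitabine replicate 2. The calls of NFKBIE and IFI6 were lost in 1 or more fits that left out co-treatment replicate 2, control replicate 1 or 2 or gemcitabine replicate 1 or 2 (highest adjusted p without a library 0.0517 to 0.254). After GC correction IFI6 was at 0.38, under the fold limit of 0.4, so this call was lost.

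Of 21 tested YAP and TGF-beta targets 1 was higher and 4 were lower. LTBP2, a matrix protein that binds microfibrils, measured 32.2 and 28.8 CPM with gemcitabine and 15.1 and 15.5 CPM with co-treatment, a change of -0.99 (SE 0.12, adjusted p = 0.000761). SKIL, a repressor of SMAD signalling, was at -0.90 (adjusted p = 0.0408) and AJUBA, a scaffold of Hippo signalling, at -0.41 (adjusted p = 0.0337). SNAI2, a factor of epithelial-mesenchymal transition, was the member that rose, from 3.20 and 2.24 to 7.44 and 5.62 CPM, with 1.25 (SE 0.24, adjusted p = 0.00982). Of 27 genes for extracellular matrix, integrins and laminins 2 were higher and 0 lower, and after GC correction 2 were higher and 3 lower. FN1 (fibronectin) rose from 4.72 and 4.73 to 10.4 and 9.998 CPM, a change of 1.11 (SE 0.17, adjusted p = 0.00321), and ITGA6 was at 0.43 (adjusted p = 0.046). Of 14 Notch, Wnt and Hedgehog targets 2 were higher, the Wnt feedback genes AXIN2 (0.997) and NKD1 (0.66), and 2 lower, TCF7 (-0.41) and HES1 (-0.43). The call of LTBP2 held with any 1 library left out, and those of SNAI2, FN1 and NKD1 were lost without gemcitabine replicate 1 or 2. The calls of SKIL, AJUBA, ITGA6, AXIN2, TCF7 and HES1 were lost in 1 or more fits that left out co-treatment replicate 1 or 2, control replicate 1 or 2 or gemcitabine replicate 1 or 2 (highest adjusted p without a library 0.0644 to 0.271).

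Of 10 ABC transporters and mucins tested, 2 were higher and 1 lower, and after GC correction 2 were higher and 3 lower. ABCG1, a sterol exporter, was higher (0.70 (adjusted p = 0.00415)), and ABCC3, an organic anion exporter, too (0.59 (adjusted p = 0.0085)). ABCC2, an exporter of conjugated drugs, fell from 139 and 146 to 85.5 and 75.7 CPM, a change of -0.83 (SE 0.09, adjusted p = 0.000448). ABCC2 was also the 1 lower gene of 23 NRF2 antioxidant and ferritin genes, in which GCLC, of glutathione synthesis, was the 1 higher (0.53 (adjusted p = 0.019)). The count called higher in that list was near the 4.05% of all genes. Of 9 genes of the aryl hydrocarbon receptor pathway 2 were higher and 1 lower: the receptor AHR rose from 8.15 and 7.09 to 15.98 and 15.3 CPM (1.04 (adjusted p = 0.0019)), SLC7A5 was at 0.48 (adjusted p = 0.0158), and the target CYP1B1 fell (-0.52 (adjusted p = 0.0379)). Of 10 metallothionein and zinc genes MT1A (0.43) and MT1X (0.41), close copies whose reads may be shared, were higher and SLC39A10 (-0.46) lower, all near the limits. Of 19 PI3K-FOXO targets BCL6 (0.67) and FOXO4 (0.66) were higher and IRS1 (-0.43), an adaptor of the insulin receptor, lower. Of 14 clock genes 1 was lower, the repressor PER2, from 11.4 and 11.8 to 7.58 and 6.75 CPM (-0.70 (adjusted p = 0.0162)). All 13 mitochondrially encoded genes had a positive sign, and 1 was called, MT-CYB, from 1378 and 1593 to 2029 and 1971 CPM (0.43 (adjusted p = 0.0111)). With genistein alone the same list had a median of -0.42 and 8 of 13 called lower, and the share of counts from mitochondrial genes overlapped between the groups, at 4.86% and 4.74% with co-treatment and 4.23% and 5.11% with gemcitabine. The call of ABCC2 held with any 1 library left out, and those of ABCG1, ABCC3, AHR, BCL6, FOXO4 and MT-CYB were lost without gemcitabine replicate 1 or 2. The calls of GCLC, SLC7A5, CYP1B1, MT1A, MT1X, SLC39A10, IRS1 and PER2 were lost in 1 or more fits that left out any of the 8 libraries (highest adjusted p without a library 0.0516 to 0.277). After GC correction MT1A was at 0.36, MT1X at 0.32, SLC39A10 at -0.34 and MT-CYB at 0.39, under the fold limit of 0.4, so these calls were lost.

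**Figure D3:**
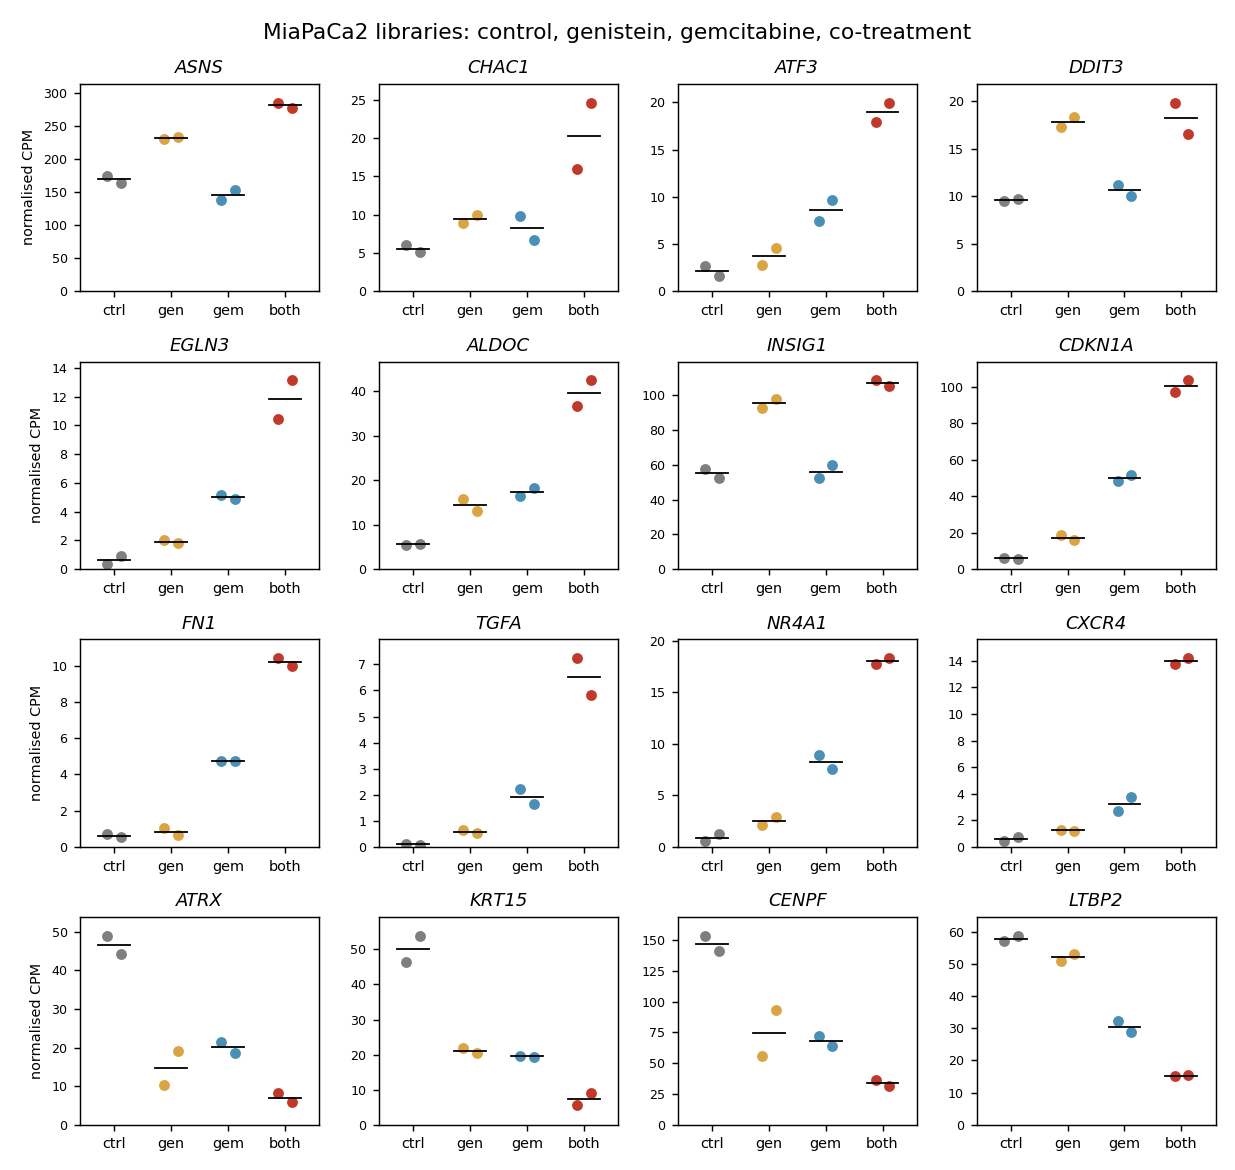
Normalised CPM of 16 genes in the 8 MiaPaCa2 libraries, each axis from 0, with a point per library and a line at the mean of the 2 replicates (ctrl control, gen genistein, gem gemcitabine, both co-treatment). The co-treatment points lie above the gemcitabine points in the first 12 genes, such as ASNS (285 and 278 against 137 and 153), and below them in ATRX, KRT15, CENPF and LTBP2.

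The largest rises among genes of at least 5 CPM with separate groups were led by SERPINI1 and CXCR4. SERPINI1, neuroserpin, a protease inhibitor of neurons (GRCh37 chromosome 3, 167453031 to 167543357, plus strand), measured 2.97 and 2.48 CPM with gemcitabine and 12.6 and 11.9 CPM with co-treatment, a change of 2.16 (SE 0.20, adjusted p = 0.000272) or 4.46-fold. CXCR4, the receptor of the chemokine CXCL12 (chromosome 2, 136871919 to 136876747, minus strand), rose from 2.74 and 3.76 to 13.8 and 14.2 CPM, 4.34-fold, with 2.12 (SE 0.20, adjusted p = 0.000272). In the controls CXCR4 read 0.426 and 0.764 CPM and with genistein alone 1.288 and 1.23 CPM, so that the co-treatment libraries were the highest of the 8. NEDD9, a focal adhesion scaffold, rose from 4.89 and 4.79 to 16.3 and 14.8 CPM. The Src-family kinase FYN rose from 8.91 and 8.12 to 23.3 and 25.3 CPM, and its replicates were close. HPCAL4, a neuronal calcium sensor, changed by 1.64, SYP, synaptophysin, by 1.39 and SYT11, a synaptotagmin, by 1.36. NGFR, the low-affinity neurotrophin receptor, was the most abundant, from 55.6 and 51.7 to 126 and 156 CPM. Opposite-strand genes cover 27.2% of the exon bases of NGFR. Further rises were those of IL10RA, an interleukin receptor (1.67), METTL12, a mitochondrial methyltransferase (1.64), and CPM, a carboxypeptidase (1.62). The calls of SERPINI1, CXCR4, NEDD9, METTL12, HPCAL4, CPM, FYN, SYP, NGFR and SYT11 held with any 1 library left out, and that of IL10RA was lost without gemcitabine replicate 1 or 2 (highest adjusted p without a library 0.0872).

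The largest falls were smaller in size and led by ATRX. ATRX, a chromatin remodeller that deposits histone H3.3 (GRCh37 chromosome X, 76760358 to 77041719, minus strand), measured 21.4 and 18.7 CPM with gemcitabine and 8.13 and 5.81 CPM with co-treatment, a change of -1.55 (SE 0.26, adjusted p = 0.00451) or 2.92-fold lower. KRT15, a basal keratin, fell from 19.7 and 19.3 to 5.65 and 9.12 CPM, with -1.43 (SE 0.19, adjusted p = 0.00134). The cytoskeletal linker DST fell from 115.8 and 95.4 to 49.6 and 40.99 CPM, and SYNE2, a giant protein of the nuclear envelope, from 43.3 and 37.01 to 20.9 and 15.6 CPM. Separate groups were a condition for naming these genes. STAG2, a cohesin subunit, went from 47.99 and 50.5 to 31.6 and 19.4 CPM, the co-treatment replicates being far apart. Further falls were those of REV3L, the catalytic subunit of DNA polymerase zeta (-1.05), GCC2, a Golgi tether (-1.02), DNAJB14, a co-chaperone (-1.14), TM4SF18, a tetraspan membrane protein (-1.12), TNFSF4, the OX40 ligand (-1.003), AATK, a kinase (-1.01), and PDE8B, a cyclic AMP phosphodiesterase (-1.01). The calls of KRT15, TM4SF18 and TNFSF4 held with any 1 library left out, and those of ATRX, DST, SYNE2 and REV3L were lost without gemcitabine replicate 1 or 2. The calls of DNAJB14, GCC2, AATK, PDE8B and STAG2 were lost in 1 or more fits that left out co-treatment replicate 1 or 2 or gemcitabine replicate 1 or 2 (highest adjusted p without a library 0.0819 to 0.202).

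Several of these genes, ATRX, DST, SYNE2 and REV3L among them, are long, and the genes called lower were longer as a class. Their median span from first to last annotated base was 46.2 kb, against 20.1 kb for the genes called higher and 22.8 kb for all genes tested. Spans over 100 kb made up 31.96% of the genes called lower, 15.1% of those called higher and 15.5% of all. Among protein-coding genes the share called lower went from 1.68% under 5 kb to 5.10% over 200 kb, and the share called higher from 8.70% to 4.13%. The co-treatment replicates differed in this trend: from under 5 kb to over 200 kb the median difference from gemcitabine went from 0.20 to -0.16 in replicate 2 and from 0.0048 to -0.012 in replicate 1. In the fit it went from 0.11 to -0.099, and after GC correction from 0.077 to -0.084. Libraries outside the comparison showed the same direction, with 0.091 to -0.10 for genistein against control in MiaPaCa2 and 0.085 to -0.19 for co-treatment against gemcitabine in PANC1. The genes called lower also had less GC, with a median of 44.5% against 52.1% for those called higher and 48.0% for all. After GC correction these medians were 49.0% and 49.6%, and 28.9% of the genes called lower still spanned over 100 kb. The part of library composition in the span trend was not tested.

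**Figure D4:**
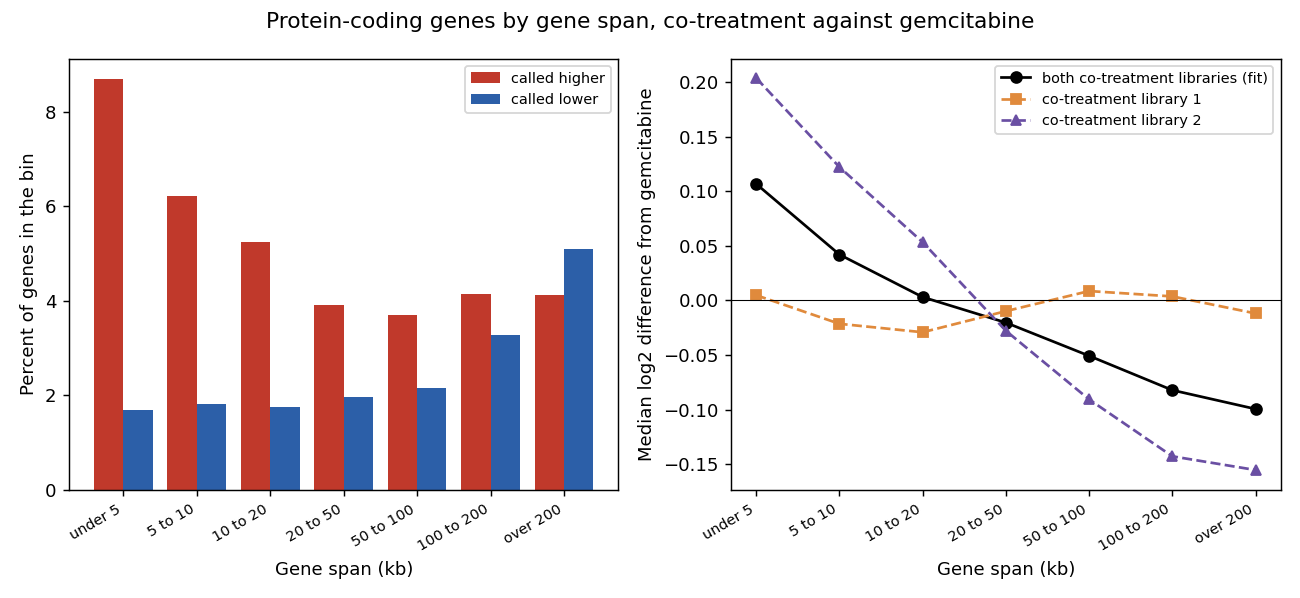
Left, percent of protein-coding genes called higher (red) or lower (blue) in co-treatment against gemcitabine, by gene span in kb. Right, median log2 difference from gemcitabine over the genes of each span bin in the fit (black), in co-treatment library 1 (orange) and in co-treatment library 2 (purple): library 2 goes from 0.20 to -0.16 and the fit from 0.11 to -0.099.

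Whether genistein acted alike with and without gemcitabine was asked with the genistein-alone and control libraries. Their means are not part of the comparison, but they shared its fit, scaling and estimate of spread. Genistein alone against control called 1335 genes (8.31%), 671 higher (4.18%) and 664 lower (4.13%). Of the 651 genes raised with gemcitabine present, 608 (93.4%) had a positive sign with genistein alone, and 289 were called higher there, which is 44.4% of the 651 and 43.1% of the 671. Of the 294 lowered genes, 278 (94.6%) had a negative sign and 117 were called lower, 39.8% of the 294 and 17.6% of the 664. Over all genes tested the sign was shared by 69.8%. Across the 16064 genes the fold changes had a Pearson correlation of 0.467 (Spearman 0.511), a description in which genes are not independent and both contrasts come from 1 set of libraries and 1 fit. Median changes were 0.52 and -0.40 with genistein alone, against 0.64 and -0.59 with gemcitabine present, in genes chosen for the latter. ASNS, for example, changed by 0.45 (adjusted p = 0.00606) with genistein alone, INSIG1 by 0.79 (adjusted p = 0.001) and ATRX by -1.65 (adjusted p = 0.001).

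**Figure D5:**
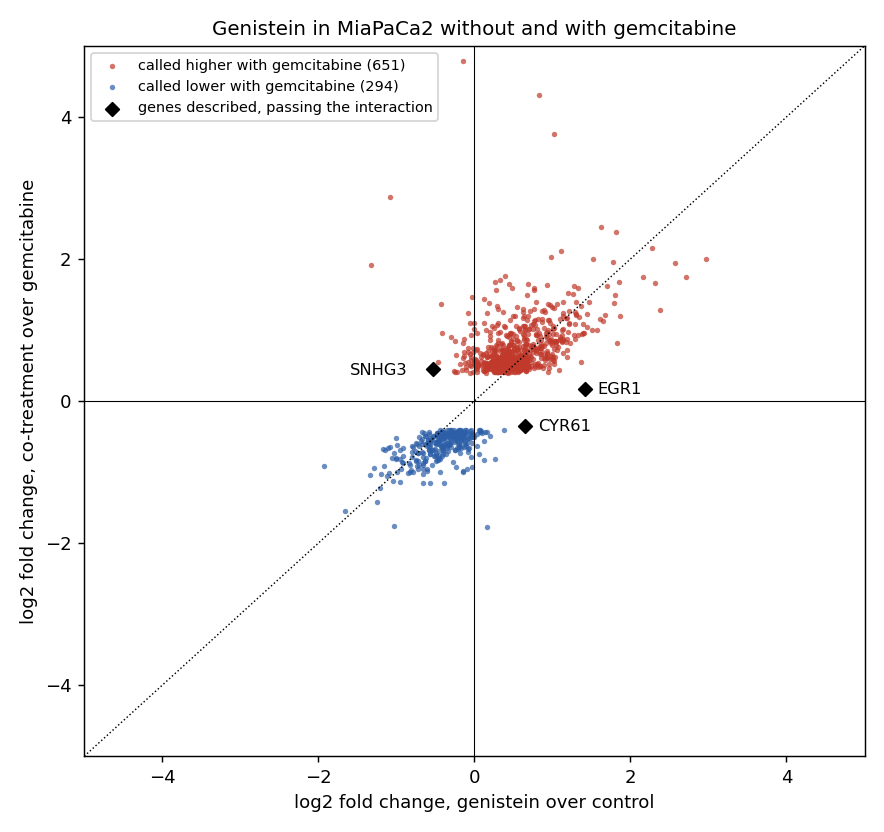
Log2 fold change of genistein with gemcitabine present (vertical) against genistein alone (horizontal) for the 651 genes called higher (red) and the 294 called lower (blue) with gemcitabine present, with the dotted line of equal change. Most points share their sign, and the diamonds mark EGR1, CYR61 and SNHG3, which passed the interaction.

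A direct test of the difference between the 2 effects, the interaction, passed for 4 genes of 16064 (0.0249%), with 1346 (8.38%) at an unadjusted p under 0.05. EGR1, an early growth response factor, read 31.4 and 29.6 CPM in controls, 83.2 and 80.3 CPM with genistein, 82.5 and 75.1 CPM with gemcitabine and 85.4 and 92.7 CPM with co-treatment. Genistein thus raised it from the control level, while the difference on top of gemcitabine was 0.18 (adjusted p = 0.271). CYR61, a matricellular YAP target, read 96.3 and 92.1, 149 and 147, 144 and 149 and 112.5 and 117 CPM in the same order. Genistein alone raised it by 0.65 (adjusted p = 0.00101) on the log2 scale, and on top of gemcitabine it was at -0.35 (adjusted p = 0.0232), under the fold limit of 0.4. SNHG3, a small nucleolar RNA host transcript, went the other way, with 114.7 and 111.8, 76.3 and 79.7, 40.8 and 40.8 and 57.9 and 53.7 CPM. Gemcitabine against control shares the gemcitabine libraries with the comparison, so levels are set side by side for the rest. In control, genistein, gemcitabine and co-treatment libraries, CDKN1A averaged 5.90, 17.1, 49.98 and 100.2 CPM. ATRX averaged 46.5, 14.8, 20.1 and 6.97 CPM. In ASNS the gemcitabine level lay below the control and the co-treatment level above it, at 169, 231, 145 and 281 CPM.

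In PANC1 the same comparison called 3 of 16909 genes (0.0177%), with 2262 (13.4%) at an unadjusted p under 0.05, 208 called by DESeq2 and 1161 after GC correction. Of the MiaPaCa2 genes tested there too, 564 of 628 raised genes (89.8%) and 242 of 274 lowered genes (88.3%) had the same sign, with median PANC1 changes of 0.38 and -0.37. Over all 15095 genes tested in both lines the changes had a Spearman correlation of 0.509. The share of all these genes with the same sign was not counted. ASNS passed in PANC1 as well, at 1.12 (adjusted p = 0.0122). CHAC1 was at 1.25 (adjusted p = 0.117) there and NGFR at 1.76 (adjusted p = 0.0792), neither past the test, beside 1.294 and 1.38 in MiaPaCa2. CDKN1A was at 0.029 (adjusted p = 0.949). The difference between the lines, fitted over all 16 libraries, passed for 19 of 17863 genes (0.106%), and 1248 (6.99%) had an unadjusted p under 0.05. CDKN1A was not among them, at -0.96 PANC1 minus MiaPaCa2 (adjusted p = 0.155). RRM2 was, with 0.34 in MiaPaCa2 and -0.29 in PANC1 (adjusted p of the difference 0.0286), and so was ABCC2, with -0.83 and 0.35 (adjusted p of the difference 0.0448). CPM, the carboxypeptidase raised in MiaPaCa2, and OPN3, an opsin, also passed, both with the smaller change in PANC1. OPN3 rose in MiaPaCa2 from 5.47 and 6.48 to 15.3 and 14.5 CPM, but opposite-strand genes cover 45.4% of its exon bases.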

How the data were processed

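Poly-A selected, stranded mRNA libraries were sequenced as single 50-base reads. Per the labels and the study's methods, reads were aligned to GRCh37 with TopHat2 2.0.4, multiply aligned reads were removed with Picard 1.29, and the authors deposited counts per gene from HTSeq 0.6.1 and FPKM from Cufflinks 2.1.1, which scales for gene length and depth. Whether reads were counted by strand, and on which annotation release, is not given in the sources used here. Each of the 16 libraries had a column in both tables, and groups came from the labels. Counts were filtered (edgeR 4.0.16, filterByExpr), TMM-normalised and fitted with limma-voom (limma 3.58.1, R 4.3.3), a mean per group over the 8 MiaPaCa2 libraries and Benjamini-Hochberg adjustment. CPM values are TMM-normalised, and totals of 13101557 to 22254419 counts per MiaPaCa2 library limit genes of few counts. edgeR's quasi-likelihood test, DESeq2 1.42.0, limma-trend on log2(FPKM + 1), other scalings and filters, a GC correction, a replicate block and leaving out libraries were alternatives. Scripts were tested on simulated data. GC content and coordinates came from GENCODE 44 lifted to GRCh37. Named were the 12 largest rises and falls among called genes with separate groups and at least 5 CPM, up to 4 called members per list in the main direction and 2 in the other, the genes the study names, genes of gemcitabine handling, and up to 5 genes of the interaction and the line difference with at least 5 CPM. The comparison and the lists were chosen with earlier results of these data known. Some results of the named genes and lists are not reported here.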

Additional observations from a re-analysis of the deposited data

Results flagged for a closer look

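The effect of genistein differed by a test of the difference itself in 4 genes of MiaPaCa2, of which 3 are described, comparing genistein added to gemcitabine with genistein added to nothing (interaction in limma-voom, adjusted p of 0.010 to 0.026). The log2 differences were -1.24 for EGR1 and -0.996 for CYR61, whose response to genistein was smaller or opposite with gemcitabine present, and 0.98 for SNHG3, which rose with gemcitabine present and fell without. In EGR1 both effects were positive, 0.18 with and 1.42 without gemcitabine, and in the other two the signs were opposite. After GC correction these 3 passed (adjusted p of 0.00092 to 0.0016). With a replicate block the adjusted p was 0.062 to 0.11, and 0 genes passed without either control library or either gemcitabine library. Their values per library are given in the report above.

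Between the lines, the difference of the genistein effect on top of gemcitabine (PANC1 minus MiaPaCa2) passed with large estimates, among genes of at least 5 CPM, in the following 4 genes. RP11-284F21.10 had 1.73, OPN3 -1.50, ETS2 -1.30 and CPM -1.29. In RP11-284F21.10 the change was 1.93 in PANC1 and 0.22 in MiaPaCa2. The other 3 rose in MiaPaCa2, by 1.32 for OPN3, 0.53 for ETS2 and 1.62 for CPM, where the PANC1 changes were -0.20, -0.78 and 0.32. Without MiaPaCa2 gemcitabine replicate 1 or replicate 2, 1 gene passed the difference between the lines in place of 19.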

How the results depend on the processing

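For genistein added to gemcitabine in MiaPaCa2, 945 genes were called. The number was 18 by limma-trend on log2(FPKM + 1), 1562 after GC correction, 492 with all 16 libraries in 1 model, 148 at a log2 fold change of at least 1 and 353 at an adjusted p of at most 0.01. It lay between 137 and 1890 when 1 library was left out, with 142 and 137 without gemcitabine replicates 1 and 2 and 1890 without co-treatment replicate 1. edgeR called 951, of which 916 were shared, and DESeq2 806. The share called higher was 68.9%, 60.8% after GC correction and 61.4% with library size alone. The interaction passed in 4 genes, in 34 with DESeq2, 7 with size factors, 18 on FPKM, 94 after GC correction and 0 to 24 without a library (0 without either control or gemcitabine library, 24 and 17 without co-treatment replicates 1 and 2, 11 without genistein replicate 2). Genistein alone called 1335 genes, 178 on FPKM and 176 to 1733 without a library (176 and 259 without control replicates 1 and 2, 432 without genistein replicate 1). In PANC1 the 3 called genes became 208 with DESeq2, 17 on FPKM, 1161 after GC correction, 0 with only the 4 libraries compared, 485 with all 16 libraries and 0 to 7 without a library. The line difference passed in 0.106% of 17863 genes, and in numbers equal to 0.481% with DESeq2, 0.0336% with library size alone, 0.0672% without the low-count filter, 1.37% after GC correction and 0.0056% to 0.106% without a library. The cause of these differences was not tested. No named gene that passed the test changed sign under an alternative run. The median changed sign in 3 of 39 lists after GC correction, in 5 on FPKM and in 0 to 7 when 1 library was left out. Of 2299 values of named genes under alternatives, 1847 kept their side of the threshold, 442 no longer passed and 10 newly passed. Of 72 values of interaction genes 26 no longer passed, as did 42 of 125 of line-difference genes, and 234 of 741 counts of list members called moved by over 1.5 times.

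Same-numbered replicates did not deviate together: over the 6 pairs of MiaPaCa2 groups the correlation of deviations ran from -0.379 to 0.216, and the pairing by number was not used. With a replicate block the comparison called 617 genes, of which 616 were among the 945, and 1437 with GC correction as well. The block left 0 genes in the interaction (29 with GC correction), 0 in PANC1 (709) and 0.0168% in the line difference (0.649%). In a model of the 4 libraries alone, added after the data were seen, same-numbered pairs gave 687 genes and crossed pairs 1465.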

Other observations

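The line difference held further genes, named after their values were seen. KLF6, a zinc finger tumour suppressor, changed by 0.014 in MiaPaCa2 and -1.19 in PANC1, a difference of -1.19 (SE 0.14). CTGF, a matricellular growth factor, changed by 0.32 and -0.76, and HAS3, a hyaluronan synthase, by 0.55 and -0.57. MICAL2, an actin oxidase, changed by 0.49 and -0.42, and the tetraspan protein TM4SF1 by -0.11 and -0.80.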
